A study of Mus musculus with 30 samples.

Results

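CD40 (Cd40), its ligand (Cd40lg) and 8 genes of the NF-kB response (Cd83, Traf1, Nfkb1, Nfkb2, Relb, Nfkbia, Tnfaip3 and Birc3) were followed in the salivary gland of female NOD.H-2h4 mice, an inbred strain that develops inflammation of the salivary glands. These 10 genes were chosen by name, and all of their probe sets on the array were taken. They and the gene lists used below were chosen with earlier results of these data known. Their counts beside those of all genes are therefore descriptions. Of the 10, 9 had a probe set that the platform table names, 19 probe sets in all; Nfkb1 was not analysed here. Of the 9, 8 passed the filter on dim signals, against 12998 of all 18193 genes on the array, and Cd40lg did not. Each mouse had received 1 intraperitoneal injection of 20 mg/kg of an antibody to CD40 ligand (anti-CD40L) or of a human IgG1 isotype antibody (control IgG) at 4 weeks of age. Whole gland was then collected at an age of 8, 16 or 24 weeks, which is 4, 12 or 20 weeks after the injection. Each of the 6 groups held 5 arrays, called biological replicates in the labels; no label says whether each came from a mouse of its own, so the p-values measure the spread between these samples. No untreated mice and no other strain were measured, so every control group had also received an antibody.

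CD40 is a receptor of the tumour necrosis factor receptor superfamily on B cells, dendritic cells, macrophages and some epithelial and endothelial cells. Its ligand sits mainly on activated helper T cells. Engaged CD40 recruits TRAF adaptor proteins and activates both branches of NF-kB signalling: the canonical branch through kinases that remove the inhibitor made by Nfkbia, and the non-canonical branch through the kinase made by Map3k14, the precursor made by Nfkb2 and its partner RelB. NF-kB in turn raises transcription of several of its own regulators, among them Nfkbia, Tnfaip3, Nfkb2, Relb, Traf1 and Birc3. In salivary glands of mice and patients with Sjögren-like disease, CD40 and its ligand are known from the lymphocyte clusters that gather around the ducts.

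The RefSeq promoter table of mouse build GRCm38.p6 held 8 promoters of 5 of the genes, Traf1, Nfkb2, Nfkbia, Tnfaip3 and Birc3. The 250 bases before each start site were searched on both strands for the NF-kB consensus motif, which 3.899% of all 32851 promoters in the table hold. It was found in 5 of the 8 promoters, from 3 of the genes. The promoters of Nfkbia and Tnfaip3 are printed because both genes rose with age in the control glands (described later). That of Nfkb2 is printed because it holds overlapping matches. That of Traf1 is printed because the gene was lower with anti-CD40L than with control IgG and this window holds no match. Each is read 5′ to 3′ along the gene's strand up to the base before the start site, with matches in capitals.
Nfkbia, chr12:55492648-55492897, minus strand: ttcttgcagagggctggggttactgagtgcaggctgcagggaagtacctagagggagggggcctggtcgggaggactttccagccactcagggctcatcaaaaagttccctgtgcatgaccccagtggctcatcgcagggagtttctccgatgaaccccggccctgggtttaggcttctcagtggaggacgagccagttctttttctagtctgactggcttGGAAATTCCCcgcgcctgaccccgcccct
Tnfaip3, chr10:19015411-19015660, minus strand: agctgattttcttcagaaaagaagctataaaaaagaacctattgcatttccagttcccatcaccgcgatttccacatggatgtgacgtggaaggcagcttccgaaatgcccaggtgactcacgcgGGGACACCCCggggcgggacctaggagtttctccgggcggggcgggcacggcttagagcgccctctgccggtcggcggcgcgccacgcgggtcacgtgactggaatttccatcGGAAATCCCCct
Nfkb2, chr19:46304487-46304736, plus strand: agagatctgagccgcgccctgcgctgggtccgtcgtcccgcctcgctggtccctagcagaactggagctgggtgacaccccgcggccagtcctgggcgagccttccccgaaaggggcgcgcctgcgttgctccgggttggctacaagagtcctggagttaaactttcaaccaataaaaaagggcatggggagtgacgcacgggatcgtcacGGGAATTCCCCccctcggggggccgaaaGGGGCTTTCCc
Traf1, chr2:34961773-34962022, minus strand: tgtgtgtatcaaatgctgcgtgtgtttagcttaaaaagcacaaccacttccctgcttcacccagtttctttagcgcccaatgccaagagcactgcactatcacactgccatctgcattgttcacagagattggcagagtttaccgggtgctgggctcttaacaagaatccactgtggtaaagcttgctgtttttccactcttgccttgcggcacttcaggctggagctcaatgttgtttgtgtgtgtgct
The match in Nfkbia began at base -29 from the start site, and those in Tnfaip3 at bases -125 and -12. The matches in Nfkb2 began at bases -39, -38 and -11, with the first of them overlapping its neighbour. The other Nfkb2 promoters each held 1 match, the second Tnfaip3 promoter and the Birc3 promoter held none. A match is a stretch of letters and no evidence of binding.

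All values are the deposited log2 intensities, so a difference of 1 is a doubling of signal. Array medians lay between 5.487 and 5.537, and the median standard error of a treatment difference over all genes was 0.139; the number of arrays limits the precision. A total of 5 arrays stood apart, with median correlations with the other arrays of 0.952 to 0.972 against 0.979 to 0.987 for the rest: 2 anti-CD40L and 2 control arrays of week 8 (anti-CD40L replicates 1 and 3, control replicates 3 and 4) and control replicate 1 of week 24. Results that rest on them are also given without them. The mean level of 8 salivary epithelial markers lay between 10.979 and 11.788 in all 30 arrays. Salivary amylase (Amy1), a product mainly of the parotid gland, spanned 6.575 to 13.695 across the arrays, and its part in the results was not tested.

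At week 24 Cd40, Cd83 and Traf1 were lower in glands of mice given anti-CD40L than in control glands. Cd83 differed most of the 3, at about 0.368 times the control signal. Within anti-CD40L glands Cd83 differed by -0.03 ± 0.32 between weeks 24 and 8 (limma, adjusted p = 0.954). Where a gene is said below to rise or fall with anti-CD40L, it was higher or lower than in control glands of the same week. Nfkb2, Relb, the inhibitors and Birc3 did not pass the test. The ligand itself was too dim to enter the test. At week 16 Cd40, Cd83 and Traf1 had differences of the same sign that missed the threshold, and at week 8 no gene of the group was called. In control glands Nfkbia, Tnfaip3, Birc3, Relb and Cd83, rose between weeks 8 and 24.

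The ligand transcript was dim throughout. Cd40lg exceeded its array's median signal in 0 of the 30 arrays, so it was left out of the test. Its group means at weeks 8, 16 and 24 were 4.91 ± 0.25, 4.87 ± 0.21 and 4.76 ± 0.19 with anti-CD40L and 4.92 ± 0.13, 4.86 ± 0.18 and 4.70 ± 0.23 with control IgG (SD, n = 5 each). The groups overlapped at every week. With no filter, over 18193 genes, the treatment differences were -0.01, 0.02 and 0.06, each ± 0.13 (SE), with adjusted p-values of 0.986, 0.987 and 0.797. At this signal a change in the amount of ligand RNA may not be detectable, and the array does not read the ligand protein that the antibody binds.

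Cd40 encodes the receptor. At week 24 it read 6.569, 6.251, 5.670, 6.087 and 5.864 in anti-CD40L glands, against 7.108, 6.575, 6.794, 6.363 and 6.538 in control glands. Of the anti-CD40L arrays, 4 of 5 were below every control array and 1 lay inside the control range. The difference was -0.59 ± 0.16 (SE; limma, adjusted p = 0.0229), or 0.666 times the control signal. At week 16 Cd40 read 6.066, 5.773, 6.044, 5.807 and 5.873 with anti-CD40L, against 6.489, 6.301, 6.058, 6.599 and 6.142 with control IgG. Again 4 of 5 anti-CD40L arrays lay below every control array. The difference of -0.41 ± 0.16 missed the threshold in the fit of all 30 arrays (adjusted p = 0.198) and passed it in a fit of these 10 arrays alone (adjusted p = 0.0468). At week 8 the means were 6.47 ± 0.26 with anti-CD40L and 6.70 ± 0.23 with control IgG (SD, n = 5 each), and the difference of -0.23 ± 0.16 was not called (adjusted p = 0.474). Of the 6 groups, anti-CD40L glands of week 16 were lowest and control glands of week 8 highest, and each group's range overlapped that of its neighbour in this order. The same overlap between neighbours held in the order of groups for each of the other 8 genes with a probe set.

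The array carries 3 probe sets for Cd40, and all 3 were lower at week 24. In the test over 21819 probe sets, the other 2 differed by -0.81 ± 0.23 (adjusted p = 0.0292) and -1.05 ± 0.23 (adjusted p = 0.0101). The brighter of these read 6.226, 5.671, 5.346, 5.807 and 5.549 with anti-CD40L, against 7.112, 6.674, 6.441, 5.627 and 6.779 with control IgG. Control replicate 4 was the only control array among the anti-CD40L values. Of all probe sets tested at this week, 8.55% were called. At week 16 the 2 further Cd40 probe sets differed by -0.40 and -0.29 and were not called (adjusted p = 0.475 and 0.680), where 1.72% of all probe sets were.

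Cd83 encodes a surface protein of mature dendritic cells and activated lymphocytes. At week 24 it read 6.119, 6.652, 6.189, 5.761 and 5.821 in anti-CD40L glands, against 8.121, 8.350, 7.100, 6.364 and 7.817 in control glands. Control replicate 4 was far below the other control arrays and lay within the anti-CD40L range, whereas the remaining control arrays were all above it. The means were 6.11 ± 0.36 and 7.55 ± 0.81 (SD, n = 5 each), a difference of -1.44 ± 0.32 (adjusted p = 0.00869). At week 16 the values were 5.891, 5.938, 5.835, 5.510 and 5.400 with anti-CD40L, against 6.928, 6.120, 5.839, 7.296 and 6.113 with control IgG. Control replicates 1 and 4 were high and the other control arrays close to the anti-CD40L values. The difference of -0.74 ± 0.32 was not called (adjusted p = 0.259). At week 8 the difference was -0.26 ± 0.32 (adjusted p = 0.727), and without control replicate 3, which read 7.423, it was 0.0004. Anti-CD40L glands had Cd83 means of 6.14, 5.71 and 6.11 at weeks 8, 16 and 24.

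Traf1 encodes an adaptor that binds TRAF2 and the cellular inhibitor of apoptosis proteins. At week 24 it read 5.233, 5.391, 5.139, 5.290 and 5.220 in anti-CD40L glands, against 6.389, 5.655, 5.607, 5.683 and 6.089 in control glands. The groups did not overlap, and 1.76% of all genes tested had anti-CD40L arrays wholly below the control arrays at this week. The difference was -0.63 ± 0.18 (adjusted p = 0.0312), or 0.646 times the control signal. At week 16 the means were 5.15 ± 0.24 with anti-CD40L and 5.52 ± 0.47 with control IgG, and at week 8 they were 5.59 ± 0.14 and 5.83 ± 0.34 (SD, n = 5 each). The differences of -0.37 ± 0.18 and -0.24 ± 0.18 were not called (adjusted p = 0.337 and 0.526). Traf1 is dim on this array, and the probe set tested exceeded its array's median in 15 of 30 arrays. A second Traf1 probe set did so in 2 of 30 arrays and was not tested. At week 24 its groups overlapped, with 4.433 to 4.859 in anti-CD40L glands and 4.626 to 5.726 in control glands (means 4.60 and 5.22).

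**Figure D1:**
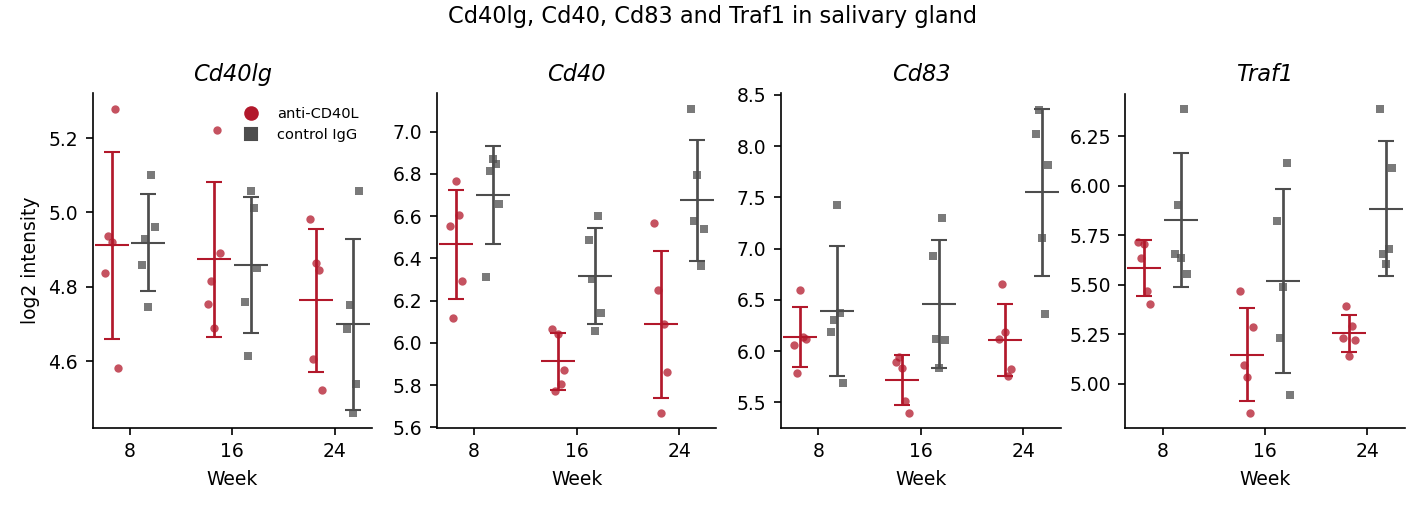
Log2 intensity (vertical axes) of Cd40lg, Cd40, Cd83 and Traf1 in each array at weeks 8, 16 and 24 (horizontal axes), anti-CD40L as red circles left of control IgG as grey squares; wide ticks and bars are the mean ± SD of 5 arrays, and each panel has its own scale. At week 24 the Traf1 groups are apart, the Cd40 and Cd83 groups overlap by 1 array each, and the Cd40lg groups lie on top of each other.

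These 3 were the genes called of the 8 tested at week 24, all of them lower; over all genes 9.46% were called in either direction and 3.49% were called lower. All 8 genes had a difference below 0, with a median of -0.27, against a median of 0.03 over all genes. At week 16 none of the 8 was called, against 1.88% of all genes, and 3 had an unadjusted p under 0.05. At week 8 none was called, against 0.0692% of all genes, and 1 had an unadjusted p under 0.05. Of the 3 calls at week 24, that of Cd83 held when each of the 10 arrays was left out in turn (highest adjusted p = 0.0376). The call of Cd40 was lost in 5 of 10 such fits and that of Traf1 in 6 of 10, both with the highest adjusted p without control replicate 1 (0.107 and 0.141). The other losses were without control replicate 3 and anti-CD40L replicates 3, 4 and 5 for Cd40, and without control replicate 5 and anti-CD40L replicates 1, 3, 4 and 5 for Traf1. In a fit of the 10 arrays of week 24 alone, which has fewer arrays to estimate the spread, the adjusted p was 0.0558 for Cd83, 0.0974 for Cd40 and 0.0600 for Traf1. Without the 5 arrays that stood apart, Cd83 differed by -1.30 (adjusted p = 0.0102), Cd40 by -0.48 (adjusted p = 0.0467) and Traf1 by -0.50 (adjusted p = 0.0574).

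The remaining 5 genes did not pass the test for treatment at any week. Nfkb2 encodes the precursor of the non-canonical subunit and differed by 0.01, -0.23 and -0.16 at weeks 8, 16 and 24, each ± 0.17 (adjusted p = 0.986, 0.620 and 0.567). Relb encodes its partner and differed by -0.02, 0.01 and -0.04, each ± 0.17 (adjusted p = 0.960, 0.985 and 0.905). Nfkbia, the inhibitor that holds NF-kB in the cytoplasm, differed by 0.32, 0.06 and -0.09, each ± 0.10 (adjusted p = 0.203, 0.847 and 0.553). Tnfaip3 encodes A20, a ubiquitin-editing enzyme that damps NF-kB, and differed by 0.11, -0.19 and -0.29, each ± 0.12 (adjusted p = 0.674, 0.525 and 0.112). Birc3, a ubiquitin ligase of the TRAF complex, differed by -0.15, -0.12 and -0.25, each ± 0.15 (adjusted p = 0.650, 0.812 and 0.265).

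Nfkbia had the smallest p of these genes at week 8, where it read 11.747, 11.421, 11.360, 11.568 and 11.388 with anti-CD40L and 11.407, 11.239, 11.104, 10.872 and 11.245 with control IgG. In this case 3 of 5 anti-CD40L arrays lay above every control array. The 5 Nfkbia probe sets all had positive differences at this week, between 0.24 and 0.41, and none was called, against 0.0412% of all probe sets. Without the arrays that stood apart the Nfkbia difference was 0.16 (adjusted p = 0.451). Tnfaip3 read 6.787, 6.981, 7.092, 6.752 and 6.861 with anti-CD40L at week 24 and 7.143, 7.313, 6.931, 7.050 and 7.484 with control IgG. The second Tnfaip3 probe set had the opposite sign at week 24, 0.12 ± 0.21 (adjusted p = 0.737).

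**Figure D2:**
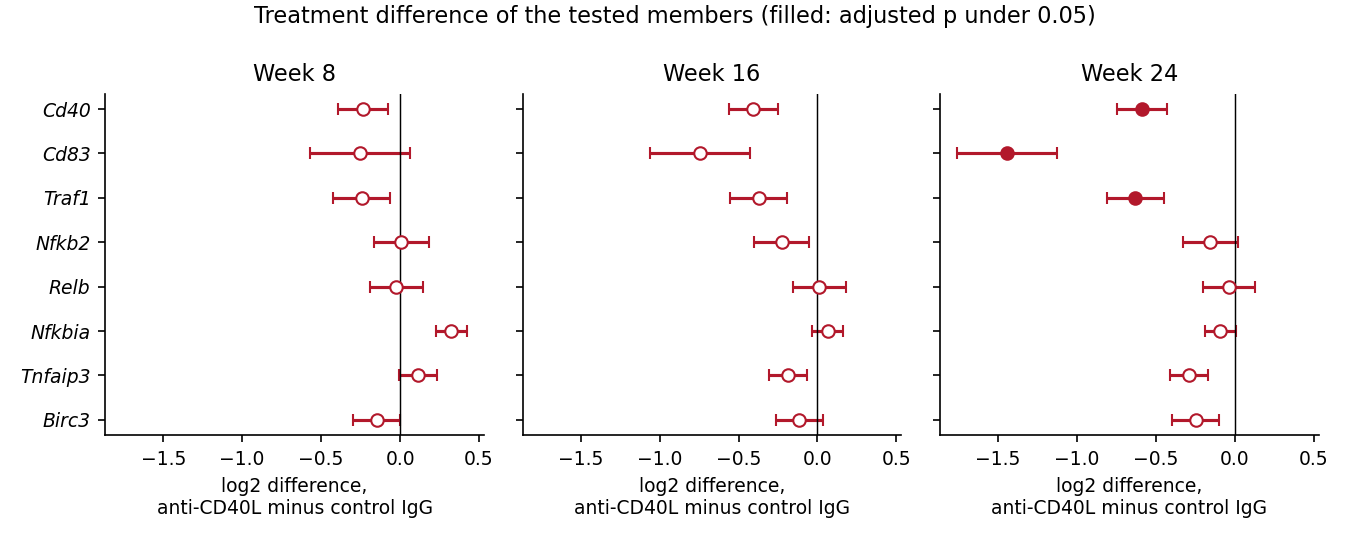
Log2 difference, anti-CD40L minus control IgG (horizontal axes), of the 8 tested genes at weeks 8, 16 and 24, with bars of 1 standard error from the limma fit; filled points passed an adjusted p of 0.05. Cd40, Cd83 and Traf1 are filled at week 24 and lie left of 0 at all weeks.

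Whether the treatment difference itself changed between weeks was tested in the same model. None of the 8 genes was called in any of the 3 such comparisons. Over all genes 0.146% were called for weeks 16 against 8, 0.00769% for weeks 24 against 8 and 1.16% for weeks 24 against 16. At an unadjusted p under 0.05 the counts among the 8 were 0, 3 and 0. For Cd83 the treatment difference at week 24 minus that at week 8 was -1.19 ± 0.45 (adjusted p = 0.663). The corresponding values were -0.35 ± 0.22 for Cd40 (adjusted p = 0.962), -0.39 ± 0.26 for Traf1 (adjusted p = 0.962), -0.42 ± 0.14 for Nfkbia (adjusted p = 0.619) and -0.40 ± 0.17 for Tnfaip3 (adjusted p = 0.775). The calls at week 24 are therefore not shown to differ from the earlier weeks.

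With age, Nfkbia, Tnfaip3, Birc3, Relb and Cd83 rose in control glands. From week 8 to week 24, 5 of the 8 genes rose and none fell in control glands, against 12.5% of all genes called and 8.49% called higher. Control glands had Nfkbia values of 11.444, 11.889, 11.753, 11.746 and 11.782 at week 24, against 11.407, 11.239, 11.104, 10.872 and 11.245 at week 8. Every array of week 24 was above every array of week 8, as in 2.22% of all genes, and the difference was 0.55 ± 0.10 (adjusted p = 0.00114). The dimmest Nfkbia probe set differed by 0.24 ± 0.15 and was not called (limma over probe sets, adjusted p = 0.281). The other Nfkbia probe sets differed by 0.52 to 0.67 and were called. Tnfaip3 in control glands averaged 7.18 ± 0.22 at week 24 and 6.59 ± 0.13 at week 8 (SD, n = 5 each), with no overlap and a difference of 0.60 ± 0.12 (adjusted p = 0.00314). The second Tnfaip3 probe set went the other way, by -0.36 ± 0.21 (adjusted p = 0.256). With the median over its probe sets the Tnfaip3 call was lost (0.12, adjusted p = 0.535). Birc3 in control glands read 7.861, 8.496, 7.819, 7.794 and 8.298 at week 24 and 7.652, 7.359, 7.776, 7.085 and 7.466 at week 8. These groups did not overlap, and the difference was 0.59 ± 0.15 (adjusted p = 0.0121).

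Cd83 in control glands differed by 1.16 ± 0.32 between weeks 24 and 8 (adjusted p = 0.0177) and by 1.09 ± 0.32 between weeks 24 and 16 (adjusted p = 0.0261). Week 24 against week 16 gave 1 call among the 8 genes, a share near the 12.4% of all genes called. Relb in control glands differed by 0.57 ± 0.17 between weeks 24 and 8 (adjusted p = 0.0247), with 3 of 5 later arrays above all earlier ones. Cd40 and Traf1 in control glands differed by -0.02 and 0.06 over the same span (adjusted p = 0.933 and 0.857). In a fit of the 10 arrays of these 2 ages alone none of the 5 rises passed, with adjusted p-values of 0.0959 for Nfkbia, 0.0795 for Tnfaip3, 0.152 for Birc3, 0.176 for Cd83 and 0.186 for Relb. Without the 5 arrays that stood apart all 5 passed, with differences of 0.50 for Nfkbia, 0.62 for Tnfaip3, 0.61 for Birc3, 1.35 for Cd83 and 0.84 for Relb. Without control replicate 2 of week 24, Cd83, Birc3 and Relb lost their calls (adjusted p = 0.0753, 0.0542 and 0.105). Cd83 and Relb also lost theirs without control replicate 5 of week 8, Relb without control replicate 5 of week 24 and Birc3 without control replicate 4 of week 8. The Cd83 call between weeks 24 and 16 was lost in 5 of 10 fits that left out 1 array, with the highest adjusted p without control replicate 1 of week 24 (0.0955). Marker levels moved with age as well. The mean B cell level in control glands was 6.172 to 7.884 at week 24 and 5.370 to 6.035 at week 8, with no overlap. The plasma cell level was 9.422 to 9.715 at week 24 and 8.116 to 8.772 at week 8, also with no overlap. The T cell levels of 6.102 to 7.684 at week 24 and 5.358 to 6.420 at week 8 overlapped. The part of these cells in the rises was not tested.

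Control glands of week 16 were also compared with week 8, where the share of the 8 genes called was below that of all genes. Between weeks 16 and 8, control glands had higher Nfkbia (0.47 ± 0.10, adjusted p = 0.000713) and Tnfaip3 (0.34 ± 0.12, adjusted p = 0.0258) and lower Cd40 (-0.38 ± 0.16, adjusted p = 0.0473), 3 calls of 8 where 46.5% of all genes were called. The Tnfaip3 rise did not hold when the median over its probe sets was taken (-0.047, adjusted p = 0.774), and it was lost in 4 of 10 fits that left out 1 array (highest adjusted p = 0.0736). The Cd40 call was lost in 7 of 10 fits that left out 1 array and without the arrays that stood apart (-0.28, adjusted p = 0.211).

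In anti-CD40L glands, Cd40 was called lower at week 16 than at week 8, and Relb and Birc3 were called higher at week 24. The shares of the 8 genes called were below and near those of all genes. Cd40 averaged 5.91 ± 0.14 at week 16 and 6.47 ± 0.26 at week 8 (SD, n = 5 each), with no overlap, as in 8.09% of all genes with lower values at the later age, and a difference of -0.55 ± 0.16 (adjusted p = 0.00904). It was the 1 call of 8 in that comparison, against 36.5% of all genes, and without the arrays that stood apart the difference was -0.43 (adjusted p = 0.0755). With the median over its probe sets it was -0.34 (adjusted p = 0.212). The mean level of 2 parotid markers also differed between these groups, 8.032 to 12.840 at week 16 and 13.394 to 13.701 at week 8, with no overlap, and its part was not tested. From week 8 to week 24 Relb differed by 0.56 ± 0.17 (adjusted p = 0.0183) and Birc3 by 0.49 ± 0.15 (adjusted p = 0.0214), 2 calls of 8 against 23.6% of all genes. Every later array was above every earlier one for both genes, as in 12.4% of all genes. Without anti-CD40L replicate 1 of week 8 neither passed (adjusted p = 0.0639 for Relb and 0.0739 for Birc3), and without the arrays that stood apart neither passed (adjusted p = 0.0868 and 0.0963). With the median over its probe sets Birc3 was not called (0.26, adjusted p = 0.142). The log2 excess of 3′ over 5′ probe sets of Gapdh and beta-actin, a measure of RNA integrity on this array, was 0.164 to 0.248 at week 24 and 0.258 to 0.516 at week 8 in these glands, with no overlap, and its part was not tested. Cd83 differed by -0.03 ± 0.32 over this span (adjusted p = 0.954). No gene of the 8 was called between weeks 24 and 16, against 5.38% of all genes.

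**Figure D3:**
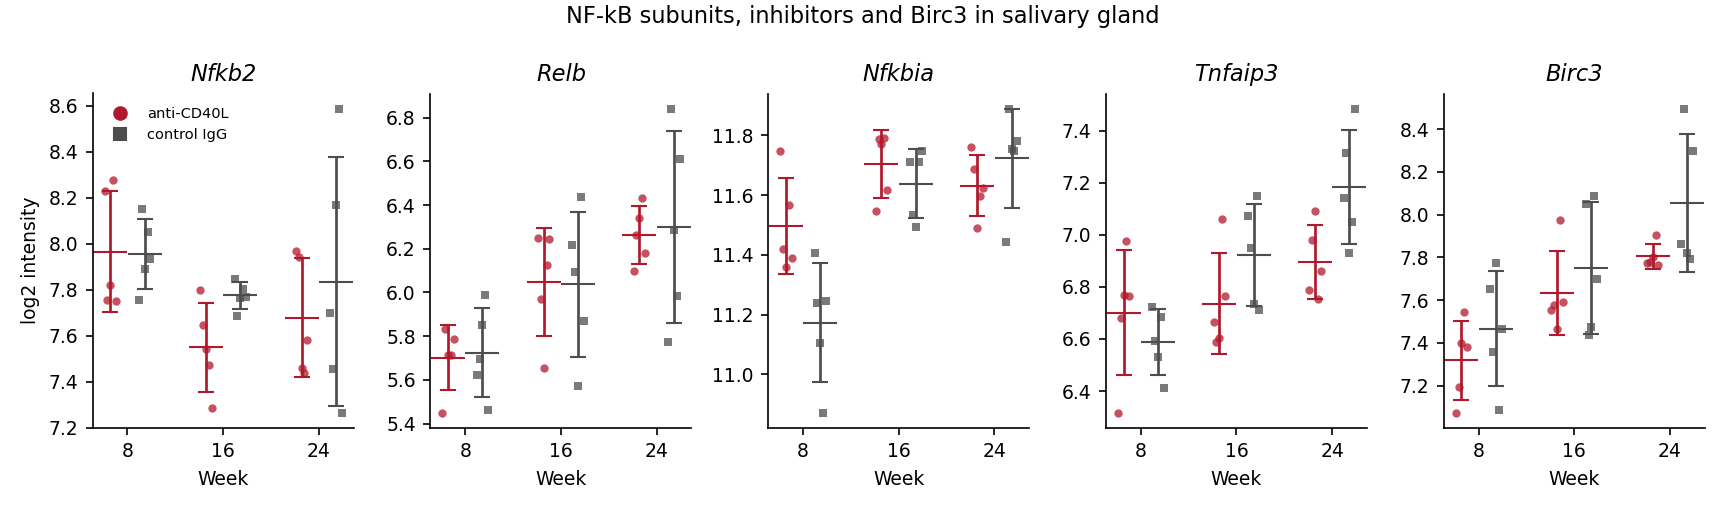
Log2 intensity (vertical axes, each panel with its own scale) of Nfkb2, Relb, Nfkbia, Tnfaip3 and Birc3 in each array by week, anti-CD40L as red circles left of control IgG as grey squares, with mean ± SD of 5 arrays. In control glands Nfkbia, Tnfaip3 and Birc3 at week 24 lie wholly above week 8, while the treatment groups overlap at every week in these genes.

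Markers of lymphocytes moved with the treatment at week 24. Of 12 B cell markers 8 were tested, and 7 of these fell with anti-CD40L; the markers not tested lay under the filter. The mean B cell level of the 8 was 5.387 to 5.690 in anti-CD40L glands and 6.172 to 7.884 in control glands, with no overlap. Of 11 T cell markers 7 were tested and 5 fell, with a mean level of 5.382 to 6.121 in anti-CD40L glands and 6.102 to 7.684 in control glands; the markers not tested lay under the filter. Of 8 tested macrophage and dendritic cell markers 1 fell, and the ranges of 7.732 to 8.078 and 7.644 to 8.448 overlapped. All 7 plasma cell markers were tested and 3 fell, with mean levels of 8.467 to 9.160 in anti-CD40L glands and 9.422 to 9.715 in control glands. Over all genes at this week 9.46% were called and 3.49% were called lower. Of 8 salivary epithelial markers 2 rose, where 775 of all 12998 genes were called higher. The mean level of the 8 was 11.518 to 11.783 in anti-CD40L glands and 10.979 to 11.448 in control glands, with no overlap. In whole gland, fewer cells of a type and less RNA per cell cannot be told apart.

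At week 16 no B cell, T cell, macrophage or dendritic cell marker was called. Of the 7 plasma cell markers 3 fell at week 16, where 1.88% of all genes were called, with mean levels of 8.163 to 8.382 in anti-CD40L glands and 8.996 to 9.559 in control glands. Of the same 7 markers 1 fell at week 8, where 0.0692% of all genes were called. The mean levels at week 8 were 7.960 to 8.100 in anti-CD40L glands and 8.116 to 8.772 in control glands. The plasma cell groups overlapped at none of the weeks. The mean B cell level at week 16 was 5.272 to 5.510 with anti-CD40L and 5.365 to 6.616 with control IgG. The 2 control arrays that were high in Cd83 at that week, replicates 1 and 4, also had the highest B cell levels of their group. Their T cell levels and their macrophage and dendritic cell levels were the highest of the group as well. The same held for the parotid level, at 12.812 and 13.543 against 8.236 to 9.936 in the other control arrays. The part of parotid tissue in the Cd83 difference was not tested. The 3′ over 5′ signal of Gapdh and beta-actin also moved with treatment at week 24: the log2 excess was 0.164 to 0.248 in anti-CD40L glands and 0.286 to 0.610 in control glands. The part of RNA integrity and of each of these cell types in the differences of Cd40, Cd83 and Traf1 was not tested.

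Within groups, Cd83 followed the immune cell markers closely. After each group's mean was subtracted, its values over the 30 arrays correlated with the B cell level at r = 0.856 and rho = 0.865, with the T cell level at r = 0.886 and rho = 0.854 and with the macrophage and dendritic cell level at r = 0.906 and rho = 0.869. Each permutation p was 1e-05, the smallest that 100000 permutations within groups can give, and 8e-05 after adjustment over the 24 relations tested. Without the 2 arrays farthest from the median marker level r was 0.793, 0.853 and 0.856. For Cd40 and Traf1 the correlation with the B cell level was r = 0.432 and 0.559 (permutation p = 0.0311 and 0.0228, adjusted 0.0622 and 0.0547) and rho = 0.565 and 0.583 (permutation p = 0.00355 and 0.00938, adjusted 0.0213 and 0.0347). Without the 2 farthest arrays r was 0.460 for Cd40 and 0.722 for Traf1. Neither gene passed with the T cell level or with the macrophage and dendritic cell level (permutation, adjusted p from 0.0532 to 0.121). Nfkbia had r = 0.090 with the B cell level (rho = 0.095, permutation p = 0.713 and 0.655, adjusted 0.777 and 0.738) and r = 0.015 without the 2 farthest arrays. Tnfaip3 and Birc3, which were not called for treatment, also correlated with some of the marker levels. Tnfaip3 had r = 0.528 and rho = 0.554 with the B cell level (permutation p = 0.0102 and 0.00798, adjusted 0.0403 and 0.0347), and r = 0.522 without the 2 farthest arrays. With the macrophage and dendritic cell level it had r = 0.417 and rho = 0.472 (permutation, adjusted p = 0.0602 and 0.0498). Birc3 had r = 0.637 and rho = 0.558 with the T cell level (permutation p = 0.0068 and 0.0149, adjusted 0.0403 and 0.0406), and r = 0.522 without the 2 farthest arrays. With the B cell level Birc3 missed the threshold (r = 0.576 and rho = 0.446, permutation, adjusted p = 0.0542 and 0.0907). All points share their array with the markers, so array quality enters both.

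**Figure D4:**
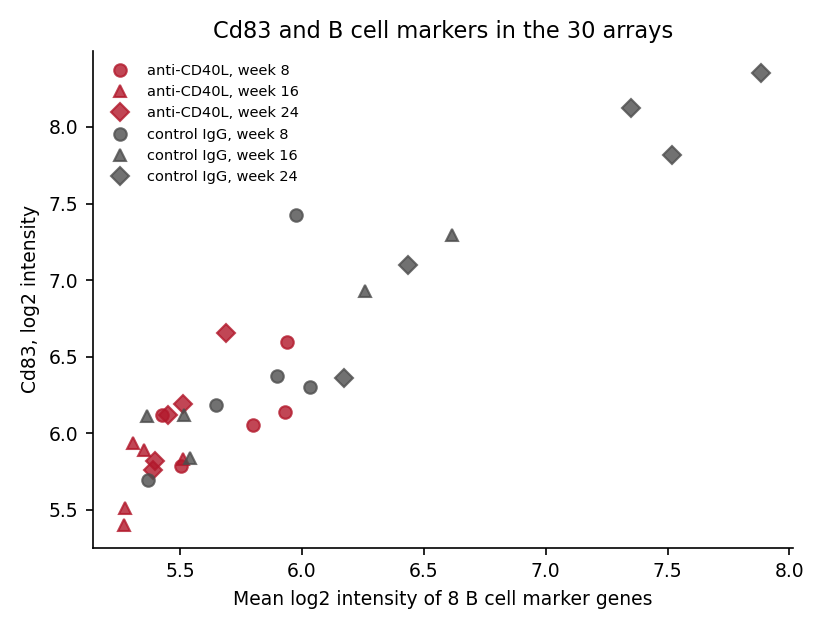
Cd83 log2 intensity (vertical axis) against the mean log2 intensity of the 8 tested B cell marker genes (horizontal axis) in the 30 arrays, anti-CD40L in red and control IgG in grey, with a symbol for each week. The control arrays of week 24 extend to 7.884 on the horizontal axis and 8.350 on the vertical axis, and the anti-CD40L arrays of all weeks stay at the lower left.

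Likeness was ranked among tested genes outside the group, leaving out immunoglobulin genes and provisional symbols such as those ending in Rik. Most like Cd83 over the 30 arrays were Coro1a (Pearson r = 0.959), Cd53 (0.954), Calhm6 (0.953), Sash3 (0.953) and Aif1 (0.951). Their r was 0.901 to 0.954 after subtraction of the group means. Coro1a, Cd53 and Sash3 are expressed mainly in blood cells, and Aif1 is a macrophage marker in the list used here. For Cd40 they were Rgs14 (0.875), Ptprcap (0.857), Klrb1f (0.850), Cd300c2 (0.849) and Brpf3 (0.846). For Traf1 they were Atp6v0e (0.822), Klrb1f (0.818), Rgs14 (0.814), Paqr7 (0.813) and Slc25a45 (0.810). These values are descriptions over 30 arrays that share the treatment and age groups.

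Other genes of CD40 and NF-kB signalling were described from a list of 53, of which 40 were tested. At week 24, 2 of the 40 rose and 7 fell with anti-CD40L. Over all 12998 genes 9.46% were called, 775 of them higher and 454 (3.49% of all genes) lower. The share of the list called higher was near that of all genes. The median difference was -0.11 against 0.03 over all genes. Among 7 receptors 2 fell. Tnfrsf13c, the B cell survival receptor for BAFF, averaged 5.21 ± 0.13 with anti-CD40L and 6.19 ± 0.63 with control IgG (SD, n = 5 each), a difference of -0.98 ± 0.21 (adjusted p = 0.00711). Tnfrsf4, the T cell receptor OX40, differed by -0.44 ± 0.13 (adjusted p = 0.0377). Ltbr, the lymphotoxin beta receptor, was not called.

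Among 5 tested adaptors and ubiquitin ligases 1 rose and 1 fell. Birc2, the close relative of Birc3, averaged 8.54 ± 0.12 with anti-CD40L and 9.08 ± 0.22 with control IgG (SD, n = 5 each), with no overlap, as in 1.76% of all genes, and a difference of -0.54 ± 0.14 (adjusted p = 0.0178). Traf6, an adaptor of CD40 and Toll-like receptors, differed by 0.33 ± 0.10 (adjusted p = 0.0415); the median over its probe sets gave -0.069 (adjusted p = 0.747). None of the 4 tested kinases, the 1 tested subunit (Rela) or the 8 tested inhibitors was called at week 24.

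Among 15 tested targets 1 rose and 4 fell. Ltb, which encodes lymphotoxin beta, averaged 7.004 ± 0.878 with anti-CD40L and 8.966 ± 0.742 with control IgG (SD, n = 5 each), with no overlap, as in the same 1.76% of genes, and a difference of -1.96 ± 0.39 (adjusted p = 0.00566). Icosl, the ligand of the T cell costimulator ICOS, differed by -0.48 ± 0.11 (adjusted p = 0.00932), and Irf4, a transcription factor of activated B cells and plasma cells, by -0.81 ± 0.21 (adjusted p = 0.0200). Ccl20, a chemokine that attracts lymphocytes and dendritic cells, differed by -0.45 ± 0.13 (adjusted p = 0.0355). Cflar, which encodes the caspase inhibitor c-FLIP, differed by 0.51 ± 0.16 (adjusted p = 0.0474). In a fit of the 10 arrays of week 24 alone none of these 9 genes passed. That fit called 72 of all 12998 genes higher and 57 lower. Leaving out single arrays gave 3 to 10 calls. Ltb, Tnfrsf13c and Icosl kept their calls in all 10 fits that left out 1 array, but with the median over probe sets Icosl was not called (-0.17, adjusted p = 0.313). Irf4 differed by -0.45 with that median (adjusted p = 0.0221). Without the 5 arrays that stood apart Cflar was not called (0.37, adjusted p = 0.0934). The call was lost in 2 of these fits for Birc2, 4 for Irf4, 6 for Cflar, 7 for Tnfrsf4, 8 for Ccl20 and 8 for Traf6.

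At weeks 16 and 8 none of the 40 was called. The smallest p-values at week 16 belonged to Irf4 (-0.72 ± 0.21, adjusted p = 0.0742), Tnfrsf1b, a receptor for tumour necrosis factor (-0.42, adjusted p = 0.112), Rela (-0.19, adjusted p = 0.151) and Tnfrsf11a, the receptor RANK (0.32, adjusted p = 0.201). Irf4 did not overlap between the groups at week 16, with means of 5.05 ± 0.14 with anti-CD40L and 5.76 ± 0.19 with control IgG (SD, n = 5 each); 3.02% of all genes had anti-CD40L arrays wholly below the control arrays at that week. It passed the test in the fit of these 10 arrays alone (adjusted p = 0.00692). At week 8 they belonged to Birc2 (-0.49, adjusted p = 0.180), Tnfrsf11a (0.45, adjusted p = 0.177), Ier3, an early response gene (0.92, adjusted p = 0.203), and Tnfrsf1a, the main receptor for tumour necrosis factor (0.33, adjusted p = 0.209). Without the arrays that stood apart these were -0.11 for Birc2, 0.59 for Tnfrsf11a, 0.59 for Ier3 and 0.21 for Tnfrsf1a (adjusted p = 0.740, 0.0775, 0.415 and 0.337). At week 16 Irf4 passed without them (adjusted p = 0.0400).

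**Figure D5:**
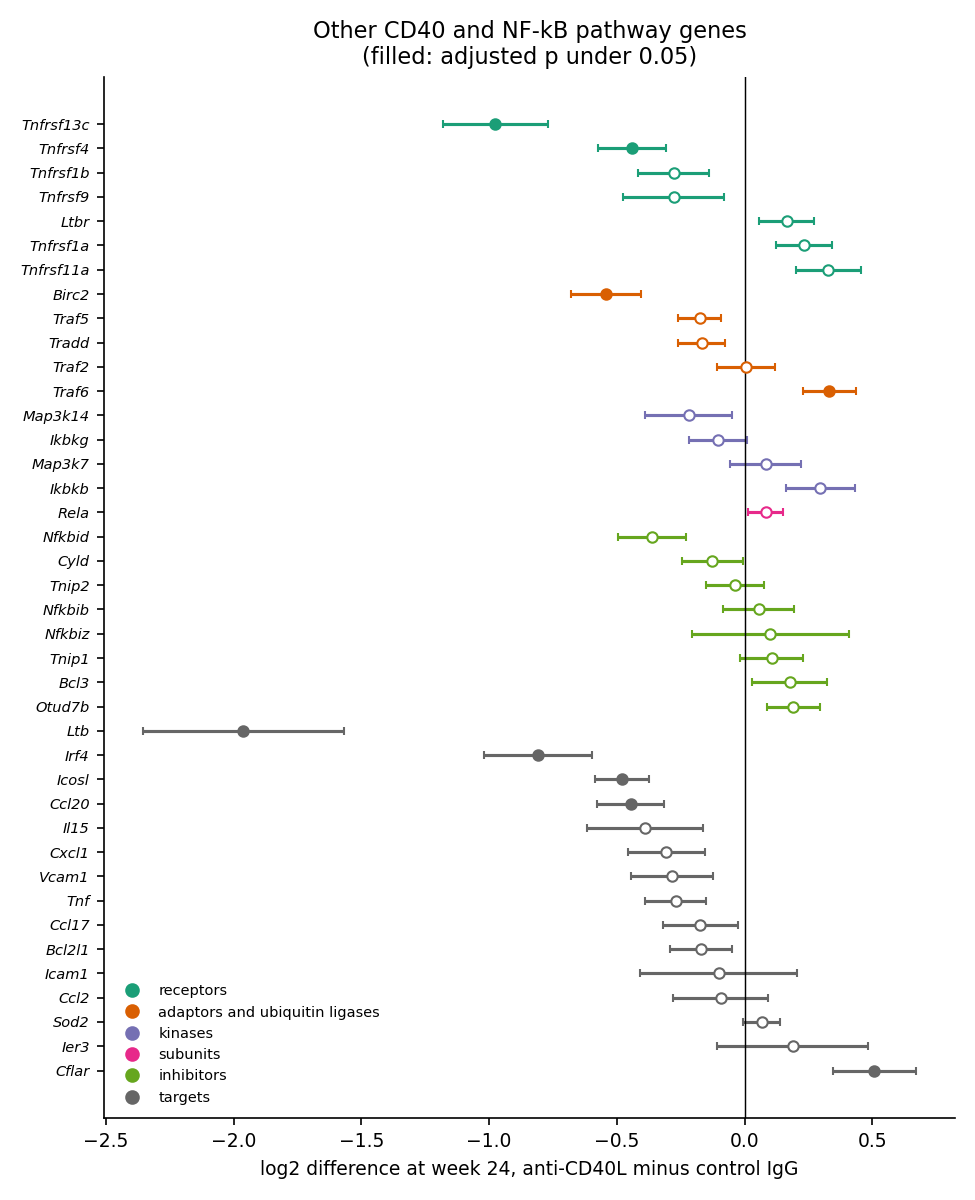
Log2 difference at week 24, anti-CD40L minus control IgG (horizontal axis), of the 40 tested genes of the CD40 and NF-kB pathway list, coloured by role, with bars of 1 standard error; filled points passed an adjusted p of 0.05. Ltb lies farthest left at -1.96, and Traf6 and Cflar are the filled points to the right of 0.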

How the data were processed

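Total RNA of whole salivary gland (2 ug per array) was measured on 30 one-colour Affymetrix whole-genome mouse arrays, per the labels. The authors' deposited table was read as log2 intensities, from its range of 2.757 to 14.457; limma is named, with no version, per the submitters' processing notes. Summarisation and normalization are not given in the sources used here. A probe set was used where the platform table names exactly 1 gene (34945 probe sets; 932 named several, 9160 were not named). A gene was its probe set with the highest mean, tested when it exceeded its array's median in at least 5 arrays. limma 3.58.1 in R 4.3.3 fitted 1 mean per group, with Benjamini-Hochberg adjustment over 12998 genes and a threshold of 0.05; the code was tested on simulated data. No 2 arrays correlated above 0.9937. Named genes were all 10 genes and some of the pathway list. From the list, each treatment comparison gave up to 4 called rises and 8 called falls, or else the 4 smallest p-values. For likeness they were the 5 highest correlations, leaving out immunoglobulin genes and provisional symbols. Alternatives covered normalization, centring, filters, probe set choice, arrays fitted, weights and a replicate block. The 10 genes and the lists were chosen with earlier results of these data known.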

Additional observations from a re-analysis of the deposited data

Results flagged for a closer look

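Birc3 had 1 array far above the others of its group in 2 groups: 7.977 in an anti-CD40L gland at week 16 and 7.906 in an anti-CD40L gland at week 24. In each case the gap to the next array exceeded the Dixon critical value of 0.71 times the group's range. Of 54 groups looked at in this way 2 stood out, and chance alone gives about 1 in 20.

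The treatment difference of Cflar was larger at week 24 than at week 16 by 0.92 ± 0.23 in the fit (adjusted p = 0.0420). Cflar differed by 0.51 at week 24, with means of 8.65 in anti-CD40L glands and 8.15 in control glands, and by -0.42 at week 16, with means of 8.60 in anti-CD40L glands and 9.01 in control glands. The value did not pass the threshold with no filter or with the median over probe sets.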

How the results depend on the processing

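Cd83, Cd40 and Traf1 kept their sign at week 24 under every alternative that tested them. At this week 1 of the 8 genes was called with a stricter filter, under which 5 of them were tested. That filter left Cd40, Traf1 and Relb out of every comparison, so their calls could not be repeated under it. In a fit of the compared arrays alone 0 were called. The stricter filter called 829 of 9184 genes higher and 383 lower. The compared arrays alone called 72 of 12998 genes higher and 57 lower. At week 16, 1 was called with the compared arrays alone and 1 with array weights. Of all 12998 genes these settings called 652 higher and 313 lower, and 1018 higher and 539 lower. For anti-CD40L glands at week 16 against week 8 the count was 2 after quantile normalization, 0 with the stricter filter, 0 with the median over probe sets, 5 with the compared arrays alone and 4 with array weights. For anti-CD40L glands at week 24 against week 8 the count among the 8 was 1 after quantile normalization and 1 with the stricter filter. It was 1 with the median over probe sets and 0 without the arrays that stood apart, an alternative chosen after seeing the data. Over all genes the counts in the same order were 1234 higher and 1647 lower, and 1995 and 683 of 9184. With the last 2 settings they were 1695 and 680, and 828 and 282. For control glands the count among the 8 was 1 with the median over probe sets at week 16 against week 8. It was 0 with the compared arrays alone at week 24 against week 8. For week 24 against week 16 it was 2 after quantile normalization and 0 with the compared arrays alone. Over all genes the counts in the same order were 3261 higher and 2049 lower, 33 and 8, 1081 and 878, and 216 and 417.

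Of the pathway list at week 16, 1 gene was called with the compared arrays alone and 4 with array weights. Without the arrays that stood apart 1 was called. Of all 12998 genes these settings called 652 higher and 313 lower, 1018 and 539, and 462 and 208. At week 24, 5 genes of the list were called with the stricter filter and 0 with the compared arrays alone. Over all genes these settings gave 829 higher and 383 lower, and 72 and 57. For the change of the treatment difference, 1 gene of the list was called with array weights (weeks 16 against 8). With no filter and with the median over probe sets 0 were called (weeks 24 against 16). Over all genes the counts in the same order were 128 higher and 135 lower, 71 and 62, and 81 and 55. Of the genes' probe sets, 1 was called at week 16 with array weights and 0 at week 24 with the compared arrays alone. The cause was not tested.

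Signs turned for small differences. Nfkb2 at week 8 was -0.040 after quantile normalization, -0.078 with the median over probe sets, -0.053 with array weights and -0.022 without the arrays that stood apart. Relb was 0.093 with array weights and 0.185 without the arrays that stood apart at week 8, and -0.0013 with array weights at week 16. With the median over probe sets, Tnfaip3 in control glands was -0.047 (week 16 against week 8), the change of the Cd40 treatment difference from week 8 to week 16 was 0.028, and Traf6 at week 24 was -0.069.

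Leaving out each array in turn gave 1 to 3 calls for treatment at week 24, 1 to 3 and 0 to 3 in anti-CD40L glands (weeks 16 and 24 against 8), and 1 to 3, 2 to 5 and 0 to 1 in control glands (weeks 16 against 8, 24 against 8, 24 against 16). For the pathway list it gave 3 to 10 at week 24 and 0 to 1 for the change from week 16 to week 24. Signs turned within these ranges: Cd83 at week 8, -0.43 to 0.0004; Nfkb2 at week 8, -0.069 to 0.063, and at week 24, -0.30 to 0.031; Relb at weeks 8, 16 and 24, -0.090 to 0.042, -0.11 to 0.11 and -0.17 to 0.099; and the change of the Traf1 treatment difference from week 8 to week 16, -0.27 to 0.019.

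With the replicate number as a block, 3 of the 8 genes were called at week 24 and 0 at weeks 8 and 16, and no other count of these genes, their probe sets or the pathway list moved by over 1.5 times. Over all genes it gave 4 calls for treatment at week 8, against 9 without it, and 1 higher and 1 lower for the change of the treatment difference from week 8 to week 16, against 16 and 3. Deviations of same-numbered arrays correlated between -0.323 and 0.401. The labels do not say what arrays with the same number share, and these correlations cannot decide it. Over all genes at week 24, 775 were called higher and 454 lower in the deposited scaling, and 633 higher and 676 lower after quantile normalization. For week 24 against week 8 in control glands these were 1103 and 521, and 858 and 978.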

Other observations

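The pathway list was also compared between ages. In control glands 9 of the 40 tested genes were called higher and 0 lower at week 24 against week 8. Over all genes 12.5% were called and 8.49% were called higher. Of the 40, 17 had an unadjusted p under 0.05. The 9 were 1 of 7 receptors, 1 of 5 adaptors and ubiquitin ligases, 2 of 4 kinases, 1 of 8 inhibitors and 4 of 15 targets. In anti-CD40L glands 9 of the 40 were called higher and 1 lower over the same span, near the share of 23.6% over all genes. Of all 12998 genes 2148 were called higher and 926 lower. Among the 9 called higher were 4 of 8 inhibitors and 1 of 15 targets. None of the 40 was called for a change of the treatment difference between these weeks, and 7 had an unadjusted p under 0.05 in that comparison.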
